A study of Mus musculus with 9 samples.

Results

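The axoneme is the microtubule scaffold that makes a cilium beat, and its protein components are encoded by several families of genes that share name stems. The genes described here were picked by symbol: Dnah, Dnai, Dnaic, Dnali, Dnal, Dnaaf, Rsph, Tekt or Cfap followed by a digit. The deposited expression table holds 18875 genes, and 72 of them carry such a name. Their products were sorted by role into dynein heavy chains, dynein intermediate and light chains, dynein assembly factors, radial spoke proteins, proteins at the base of the spokes, tektins, other proteins inside the microtubule lumen, central apparatus proteins, tether proteins and Cfap genes of other or less certain role.

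The mice were BALB/c of wild-type genotype, and whole lung gave 9 libraries, 3 in each of 3 groups. PM2.5, fine airborne particulate matter, was given into the nose at 10 mg/kg. The long-term group was dosed 6 times, with 3 days from one dose to the next, and the short-term group 1 time. The third group received the saline vehicle PBS and is labelled as the control of the long-term schedule, so the short-term group had no control of its own duration here and its difference from PBS combines particles with schedule. The labels do not say whether the 3 libraries of a group were separate mice, so each p-value measures the spread between libraries, which may be partly technical. Expression was deposited as TPM, a transcript level already scaled by transcript length and by library total, and the depth of sequencing behind it is unknown.

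A motile cilium beats because dynein motors, anchored in an outer and an inner row on each microtubule doublet, walk along the neighbouring doublet. Radial spokes and the central pair of microtubules regulate the motors, tektins and other luminal proteins stiffen the doublets, and assembly factors fold and join the dyneins in the cytoplasm before they are carried into the cilium. In the lung these organelles stand in large numbers on the multiciliated cells of the airway lining and clear mucus and trapped particles, while most other lung cells lack them. A lung homogenate mixes all cell types, so more ciliated cells and more axonemal RNA per ciliated cell cannot be told apart in any value below.

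The libraries held the markers of lung and of ciliated cells. Scgb1a1, the secretory protein of club cells, lay between 106890 and 180660 TPM and Sftpc, the surfactant protein of alveolar type 2 cells, between 19628 and 38597 TPM. All 19 ciliated cell markers outside the name rule passed the filter of at least 1 TPM in at least 3 libraries, and Foxj1, the master transcription factor of motile cilia, lay between 68.7 and 283 TPM. Sperm also build axonemes, and 10 of 12 sperm and testis genes in the table stayed under the filter, none above 0.92 TPM in any library. Prm2, a sperm protamine, was listed at 0 throughout, Prm1 at 0 in all but long-term replicate 2 (0.22 TPM), and Akap4 at no more than 0.03 TPM. The other two genes of that list were well above it, Odf2 at 14.15 to 35.46 TPM and Spata18 at 1.91 to 33.3 TPM. The short-term libraries differed from the others over the whole table. Relative to PBS, genes with transcripts of at least 4727 bases lay below genes with transcripts of at most 2139 bases by 1.23, 0.57 and 0.76 log2 units in short-term replicates 1, 2 and 3, against 0.11 to 0.17 in the long-term libraries, and 12560, 13414 and 13175 genes reached 1 TPM there, against 13534 to 13930 in the other 6 libraries. Whether RNA quality, library preparation or the exposure went with this trend was not tested, and short-term results are therefore also given after a correction that removes, in each library, a smooth trend with transcript length and GC content.

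Of the 72 genes, 66 passed the filter and were tested. Dnah7a, Dnah14, Dnah17, Cfap47, Rsph6a and Cfap97d1 were not tested: none exceeded 0.93 TPM in any library, and the last pair were listed at 0 throughout. The mean level of the tested genes ran from 0.63 to 89.5 TPM with a median of 6.14 TPM, and their transcripts from 921 to 16685 bases. Dnah7b, Dnah7c, Dnaaf6b and Tekt3 passed the filter only through the long-term libraries, where they were highest.

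Long-term PM2.5 was set against PBS of the same schedule to ask whether repeated particle exposure changed ciliary gene expression. Axonemal genes were higher across nearly the whole machine: 52 of the 66 tested rose (78.8%) and 0 fell, where 9.51% of all 13991 tested genes rose and 1.72% fell. The call was an adjusted p under 0.05 by limma on log2(TPM + 1), adjusted after Benjamini-Hochberg across every gene tested. The median log2 fold change of the tested axonemal genes was 0.86, against 0.03 for all tested genes, with a middle range of 0.62 to 1.06 and standard errors of 0.11 to 0.24. The ratio of mean TPM had a median of 2.07. In 60 genes every long-term library lay above every PBS library (25.9% of all tested genes did so) and in 1 gene, Tekt5, every long-term library lay below (17.4%). The filter fixed this separation in advance for Dnah7b, Dnah7c, Dnaaf6b and Tekt3, which are among the 60. Leaving out the 4 genes that passed the filter only through the long-term libraries, 49 of 62 rose with a median of 0.89. Testing all 72 with no filter gave 51 that rose.

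The summed level of the 72 genes shows the same separation by library. It was 696.17, 646.1 and 694.95 TPM with PBS, 1168.38, 1209.73 and 1420.25 TPM after long-term exposure, and 541.7, 570.62 and 578.04 TPM after short-term exposure. The 3 groups did not overlap, and long-term replicate 3 was the highest of all. Without that library 32 genes rose. Leaving out each library in turn, 32 of the 52 genes rose every time, and the 20 whose call was lost at least once were Cfap54, Cfap57, Cfap69, Cfap73, Cfap77, Cfap99, Cfap161, Cfap221, Cfap300, Dnaaf2, Dnaaf6b, Dnah1, Dnah2, Dnah3, Dnah6, Dnah7b, Dnah7c, Dnaic1, Rsph3b and Rsph4a.

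**Figure D1:**
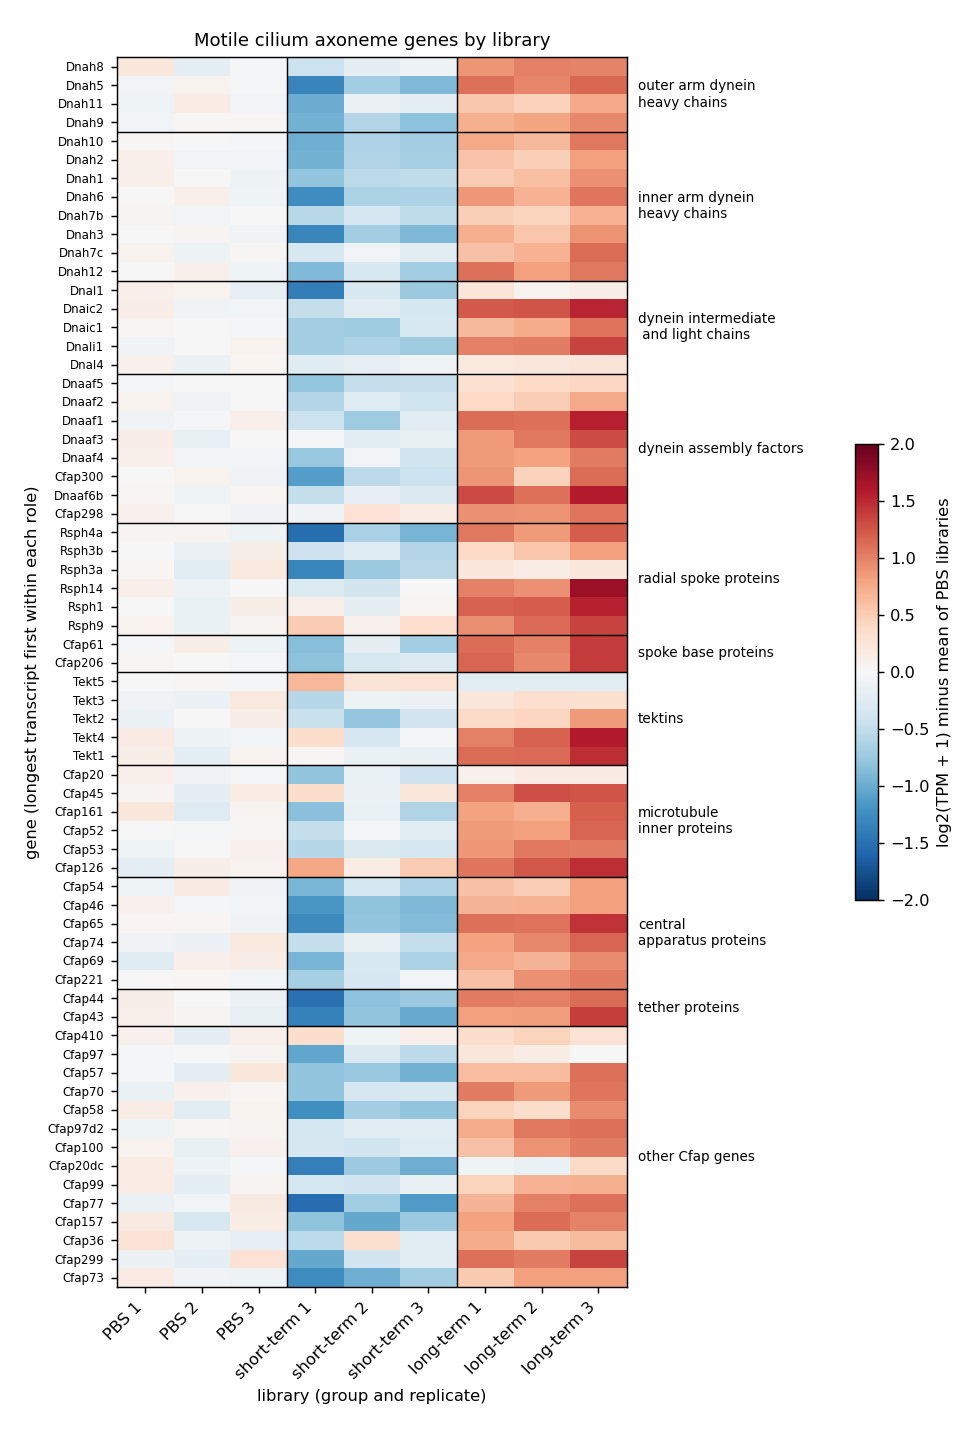
Each row is an axonemal gene, grouped by role, and each column a library, with the colour giving log2(TPM + 1) minus the mean of the 3 PBS libraries. The long-term columns are above PBS in most rows, with a median difference over the tested axonemal genes of 0.76, 0.81 and 1.05. Over all tested genes it is 0.09, 0.0 and -0.01. The short-term columns are mostly below, with medians of -0.77, -0.34 and -0.41, against -0.6, -0.13 and -0.29 over all tested genes.

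Promoters of these genes are shown because the genes moved together and because ciliary genes are known to be controlled through the X-box, the site of RFX factors, which often work with Foxj1. RefSeq promoter windows on GRCm38.p6 were found for 61 of the 72 genes, and the 250 bases before the start were searched on both strands. The letters GTTGCC, one side of an X-box, occurred in 18 of the 61 genes (29.5%) and in 11.8% of 27025 genes in the promoter table. A full X-box palindrome, with both sides and a spacer of any bases, which can overlap a GTTGCC match, occurred in Cfap20dc and Cfap298 (3.28%, against 0.444% of all), and the forkhead letters TGTTTAC in 4 genes (6.56%, against 3.54%). The spacer of the palindrome was fixed at 2 bases of any kind, and each side left 1 position free. All other letters had to match exactly. Looser spellings of the palindrome were not counted, so a gene outside this pair may still hold both sides of an X-box. The spellings were settled after others had been tried. A match is a description of letters and not of binding, and no test was made of the shares. Genes with GTTGCC did not stand apart in expression: 13 of 17 tested rose in the long-term group with a median log2 fold change of 0.82, and 29 of 38 without it, with a median of 0.86. Of the windows that hold the letters, 6 are printed 5′ to 3′ on the strand of the gene, with GTTGCC or its reverse complement in capitals. The first 4 genes rose in the long-term group and Cfap20dc and Cfap20 did not pass the test, so the letters occurred on both sides of the call. The windows are chr11:72361883-72362132 (Tekt1, minus strand), chr11:114727169-114727418 (Dnaic2, plus), chr5:124724835-124725084 (Dnah10, plus), chr16:44394549-44394798 (Cfap44, plus), chr14:8666291-8666540 (Cfap20dc, minus) and chr8:95434870-95435119 (Cfap20, minus). For Tekt1 and Dnaic2 they lie inside the outermost span of the gene, beside a start further in.
Tekt1: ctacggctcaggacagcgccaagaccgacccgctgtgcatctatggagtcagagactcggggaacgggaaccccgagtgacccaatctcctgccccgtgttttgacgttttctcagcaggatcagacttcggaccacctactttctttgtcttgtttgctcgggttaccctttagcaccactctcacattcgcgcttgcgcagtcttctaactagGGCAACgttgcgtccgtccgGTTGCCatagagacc
Dnaic2: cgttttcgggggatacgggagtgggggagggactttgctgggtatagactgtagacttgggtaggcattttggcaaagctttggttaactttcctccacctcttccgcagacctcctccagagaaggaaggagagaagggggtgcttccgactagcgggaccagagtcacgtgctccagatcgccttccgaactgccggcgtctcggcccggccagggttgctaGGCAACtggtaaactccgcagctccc
Dnah10: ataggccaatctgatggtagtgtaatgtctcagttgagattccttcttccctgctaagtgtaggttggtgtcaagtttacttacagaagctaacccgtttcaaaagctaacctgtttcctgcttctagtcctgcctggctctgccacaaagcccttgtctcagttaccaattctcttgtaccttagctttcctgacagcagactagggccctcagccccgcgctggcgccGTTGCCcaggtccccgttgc
Cfap44: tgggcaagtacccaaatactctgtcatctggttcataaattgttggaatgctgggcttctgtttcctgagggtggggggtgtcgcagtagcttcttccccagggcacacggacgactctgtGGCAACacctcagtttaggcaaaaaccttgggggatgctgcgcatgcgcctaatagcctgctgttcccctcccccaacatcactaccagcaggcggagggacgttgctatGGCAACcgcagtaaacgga
Cfap20dc: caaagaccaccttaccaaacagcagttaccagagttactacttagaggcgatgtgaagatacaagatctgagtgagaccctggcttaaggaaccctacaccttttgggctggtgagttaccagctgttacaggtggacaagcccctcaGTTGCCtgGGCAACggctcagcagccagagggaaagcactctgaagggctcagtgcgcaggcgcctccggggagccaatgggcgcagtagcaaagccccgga
Cfap20: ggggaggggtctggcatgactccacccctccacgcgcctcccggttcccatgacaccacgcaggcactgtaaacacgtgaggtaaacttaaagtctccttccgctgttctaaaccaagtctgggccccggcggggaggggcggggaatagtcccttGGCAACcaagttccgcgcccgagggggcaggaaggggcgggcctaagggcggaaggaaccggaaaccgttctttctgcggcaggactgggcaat

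In these windows the match nearest the start began 15 bases before it in Tekt1, 26 in Dnaic2, 20 in Dnah10 and 19 in Cfap44. In Cfap20dc and in Cfap20 it began 94 bases before the start. These genes were picked for print after their values were seen, and the distance is a description of 6 windows only.

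Dynein heavy chains are the motors themselves. Outer arm heavy chains set the power of the beat, and 3 of 4 tested rose, with a median log2 fold change of 0.89. Dnah5 (chromosome 15, 28154854 to 28472045) is the outer arm motor most often disrupted in primary ciliary dyskinesia. It measured 2.27, 2.6 and 2.37 TPM in PBS, 6.33, 5.72 and 6.53 in the long-term group and 0.37, 1.11 and 0.84 in the short-term group. The 3 groups did not overlap, and the long-term rise was 1.07 on the log2(TPM + 1) scale (SE 0.17, limma adjusted p = 0.00236). Dnah9, its partner along the outer part of airway cilia, rose by 0.82 (SE 0.14, limma adjusted p = 0.0045), from 2.92 ± 0.12 to 5.94 ± 0.60 TPM (SD, n = 3). Dnah8, an outer arm chain best known from sperm, rose by 0.96, from 1.34 ± 0.34 to 3.52 ± 0.22 TPM (SD, n = 3). Dnah11, the outer arm chain near the base of the cilium, measured 2.33, 2.94 and 2.40 TPM in PBS and 4.14, 3.90 and 5.0 TPM in the long-term group. Its groups did not overlap, but its log2 fold change of 0.59 did not pass (limma adjusted p = 0.142) and passed after the length and GC correction, at 0.62.

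Inner arm heavy chains shape the bend, and all 8 tested rose, with log2 fold changes of 0.54 to 0.99. Dnah7b and Dnah7c were tested only because of their long-term libraries. Among the 8, only Dnah10 and Dnah12 kept the call in every fit that left out 1 library. Dnah12 had the largest change of the inner arm chains, with 1.61, 1.82 and 1.49 TPM in PBS and 4.66, 3.68 and 4.45 TPM in the long-term group. Dnah6, the most abundant inner arm chain here, measured 3.87, 4.27 and 3.64 TPM in PBS and, after long-term exposure, 7.99, 6.98 and 9.35 TPM. In both genes each long-term library exceeded each PBS library. Dnah10 rose by 0.82, Dnah3 by 0.73 and Dnah2 by 0.62. Dnah7b rose by 0.54 and Dnah7c by 0.80, but these and the untested Dnah7a are close copies lying near each other on chromosome 1, and shared reads could move between them.

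Dynein intermediate and light chains anchor the motors and link them to the doublet, and 3 of 5 rose. Dnaic2 (chromosome 11, 114721341 to 114757889), an intermediate chain of the outer arm, had the largest log2 fold change of all axonemal genes tested. Its levels were 8.0, 6.83 and 6.96 TPM in PBS and 18.3, 18.7 and 22.7 TPM in the long-term group, a log2 difference of 1.33 (SE 0.15, limma adjusted p = 0.000369). Dnaic1, the other outer arm intermediate chain, rose by 0.82. Dnali1, the light intermediate chain of inner arms, rose by 1.13, from 23.0 ± 1.17 to 51.7 ± 7.13 TPM (SD, n = 3). The light chains stood apart: Dnal1 measured 6.21, 6.05 and 5.04 TPM in PBS and 6.95, 6.08 and 6.36 TPM in the long-term group, and its groups overlapped (log2 fold change 0.14, limma adjusted p = 0.844). Dnal4 had a log2 fold change of 0.23 (limma adjusted p = 0.265) with 42.4 ± 3.07 TPM in PBS and 49.7 ± 0.95 TPM in the long-term group (SD, n = 3).

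Assembly factors are not part of the axoneme but are needed to build its dyneins. Of 8 tested, 7 rose, with a median over the 8 of 0.93. Dnaaf1, a leucine-rich repeat protein required for both arm rows, measured 4.0, 4.19 and 4.66 TPM in PBS and 10.49, 10.30 and 14.51 TPM in the long-term group, a rise of 1.26. Cfap298, the most abundant of the factors, measured 44.2, 41.1 and 39.2 TPM in PBS and 78.9, 77.9 and 88.0 TPM in the long-term group, a rise of 0.96. In both genes the groups lay well apart. Dnaaf3 rose by 1.07 and Dnaaf2 by 0.55, the latter close to the threshold (limma adjusted p = 0.0478). Dnaaf5 was 18.9 ± 0.27 TPM in PBS and 24.7 ± 1.01 TPM in the long-term group (SD, n = 3), its libraries did not overlap, and its log2 fold change of 0.37 did not pass (limma adjusted p = 0.111) but passed after the length and GC correction, at the same size. Dnaaf6b, a low gene counted only through the long-term libraries, rose by 1.33, from 0.65, 0.52 and 0.65 TPM to 2.99, 2.43 and 3.76 TPM. At least 20% of the exon bases of Cfap298, Dnaaf1, Dnaaf2 and Tekt2 lie in exons of another annotated gene, and the sources used here do not state whether reads were counted by strand, so part of their levels could belong to the neighbour.

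Radial spokes carry signals from the central pair to the dyneins, and 5 of 6 tested spoke genes rose. The spoke head gene Rsph1 (chromosome 17, 31255019 to 31277296) had the smallest adjusted p of all axonemal genes tested. Rsph1 measured 40.3, 36.7 and 43.7 TPM in PBS, 43.3, 35.0 and 41.4 TPM in the short-term group and 92.5, 94.6 and 119.5 TPM in the long-term group. The short-term and PBS libraries overlapped while all long-term libraries stood above them, and the long-term rise was 1.32 (SE 0.14, limma adjusted p = 0.000253). Of the other head genes, Rsph9 rose by 1.14 and Rsph4a by 1.04. Rsph3a and Rsph3b encode copies of a stalk protein on chromosome 17, and reads could be shared between them. Rsph3b rose by 0.59 and Rsph3a had a log2 fold change of 0.19 that did not pass, with 40.3 ± 6.01 TPM in PBS and 45.7 ± 1.28 TPM in the long-term group (SD, n = 3). At the base of the spokes, Cfap61 and Cfap206 each rose by 1.17.

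Tektins form filaments inside the doublets, and here the response was mixed: 2 of 5 rose. Tekt1 measured 16.7, 13.5 and 16.1 TPM in PBS and 34.3, 34.7 and 44.5 TPM in the long-term group, a rise of 1.24. Tekt4 rose by 1.26, from 18.2 ± 1.94 to 45.5 ± 9.82 TPM (SD, n = 3). Tekt2 and Tekt3 did not pass, with log2 fold changes of 0.56 and 0.30. Tekt5, best known from the sperm flagellum, went the other way. It measured 7.57, 7.75 and 7.44 TPM in PBS, 12.66, 9.22 and 9.54 TPM in the short-term group and 6.42, 6.43 and 6.37 TPM in the long-term group, so the 3 groups were ordered in the reverse of the summed level. The long-term difference of -0.21 did not pass as deposited (limma adjusted p = 0.512) and passed as a fall of 0.36 on the log2 scale after the length and GC correction.

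**Figure D2:**
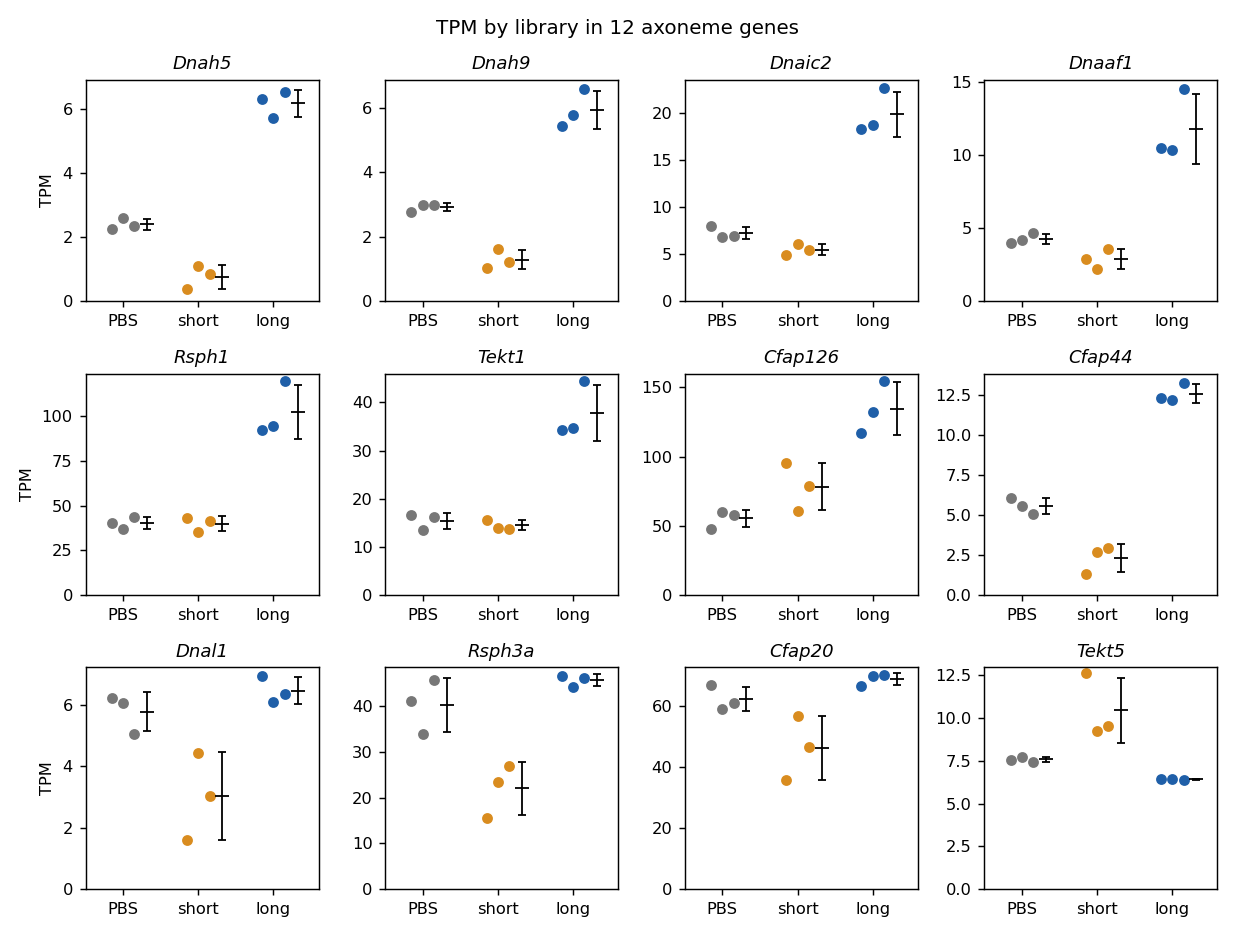
TPM by library for 12 axonemal genes, one panel each, with points for the 3 libraries of PBS, short-term and long-term PM2.5 and a black bar for the mean ± SD. Rsph1, Tekt1 and Dnaic2 separate the long-term libraries from the rest, Dnal1, Rsph3a and Cfap20 show long-term libraries near PBS, and Tekt5 is lowest in the long-term group.

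Other luminal proteins followed the first pattern, with 5 of 6 higher. Cfap126, also named Flattop, was the most abundant axonemal gene, with 48.1, 59.8 and 58.2 TPM in PBS and 117, 132 and 155 TPM in the long-term group, and it rose by 1.26. Cfap45 rose by 1.18, Cfap53 by 0.98 and Cfap161 by 0.91. Cfap20, a luminal protein that is also found in basal bodies, was the exception, with 62.3 ± 3.94 TPM in PBS and 68.8 ± 2.05 TPM in the long-term group (SD, n = 3) and a log2 fold change of 0.14 that did not pass (limma adjusted p = 0.722). All 6 tested central apparatus genes rose, led by Cfap65 at 1.21, which went from 9.89, 9.84 and 9.03 TPM to 21.7, 21.4 and 27.9 TPM. Cfap74 rose by 0.98, Cfap69 by 0.79 and Cfap46 by 0.73. Cfap43 and Cfap44, which tether an inner arm dynein to the doublet, rose by 1.01 and 1.05.

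Among the remaining Cfap genes 9 of 14 tested rose. Cfap157 rose by 0.97 and Cfap100 by 0.84. Cfap36 (0.63, limma adjusted p = 0.0875), Cfap410 (0.37), Cfap97 (0.13), Cfap20dc (0.06) and Cfap58 (0.58) did not pass, and Cfap36 passed after the length and GC correction, at 0.40. Cfap97 measured 6.66, 6.79 and 7.15 TPM in PBS and 8.23, 7.72 and 6.93 TPM in the long-term group, and these overlapped. The genes that did not pass were spread over several roles and held low and high levels alike. After the length and GC correction 53 of 66 genes rose and 1, Tekt5, fell (12.4% and 11.6% of all genes with a length), 50 of the 52 kept their call, and the median was 0.76. The pair that lost it were Cfap73 and Dnah7b.

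**Figure D3:**
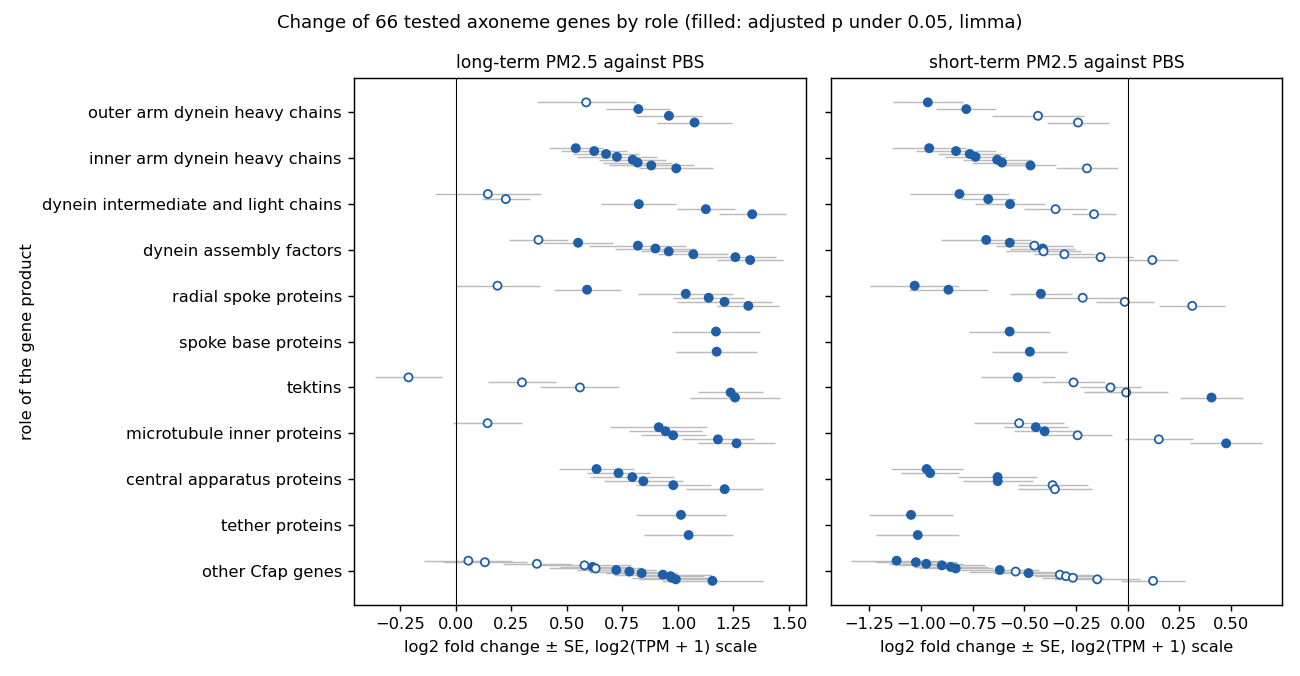
Log2 fold change with its standard error for each of the 66 tested genes, by role, in each comparison, with filled symbols for limma adjusted p under 0.05. In the long-term group against PBS all roles lie mainly to the right of 0 and 10 of the 14 genes that did not pass are tektins, light chains or other Cfap genes, and in the short-term group against PBS most genes lie to the left.

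The short-term group was compared with the same PBS libraries to ask what a single dose did. As deposited, 37 of 66 axonemal genes fell (56.1%) and 2 rose, where 40.3% of all tested genes fell and 11.7% rose. After the length and GC correction 17 fell and 5 rose (25.8% lower), where 26.4% of all genes fell and 24.0% rose, so the corrected share of genes that fell was near the background. The median log2 fold change was -0.48 as deposited (all tested genes -0.34) and -0.16 after correction (all genes -0.02), and 14 of the 37 genes kept their call. In 47 genes all short-term libraries lay below all PBS libraries (45.8% of all tested genes did so), and in 3 all lay above (14.5%). Both comparisons use the same PBS libraries, so their values are given side by side and not related to each other.

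Among heavy chains the short-term calls changed with the length and GC correction, which removes both trends at once. They are the longest genes of the set, each over 10000 bases, and 9 of the 12 tested fell as deposited, with a median log2 fold change of -0.68. All 313 tested genes of at least that length had a median of -0.88, and 250 of them fell. After correction the median of the heavy chains was 0.18, none fell, and Dnah7c (0.77), Dnah8 (0.70) and Dnah11 (0.52) rose. As deposited Dnah7c, Dnah8 and Dnah11 had -0.20, -0.24 and -0.43, and none passed. Dnah7c passed the filter only through the long-term libraries. It measured 0.41, 0.26 and 0.37 TPM in PBS and 0.08, 0.29 and 0.16 TPM in the short-term group. At such levels the log2(TPM + 1) scale leaves little room for a fall, so its corrected value cannot show a rise. The same holds for Dnah7b (0.50 after correction, not passing), which was under 1 TPM in every PBS and short-term library. The corrected median of 0.18 includes both. Dnah5 gives an example of the changed calls: its short-term difference was -0.97 as deposited (SE 0.17, limma adjusted p = 0.00163) and -0.01 after correction. Dnah9 went from -0.78 to 0.09, Dnah6 from -0.83 to 0.13 and Dnah12 from -0.63 to 0.34. Across the 66 genes the Spearman correlation of the short-term change with transcript length was -0.42 as deposited (-0.53 over all tested genes) and 0.59 after correction (0.02 over all genes), so the correction left a reverse trend within this set. These correlations run over genes that share libraries, and are descriptions. In the long-term comparison the same heavy chains had a median of 0.81 as deposited and 0.83 after correction.

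**Figure D4:**
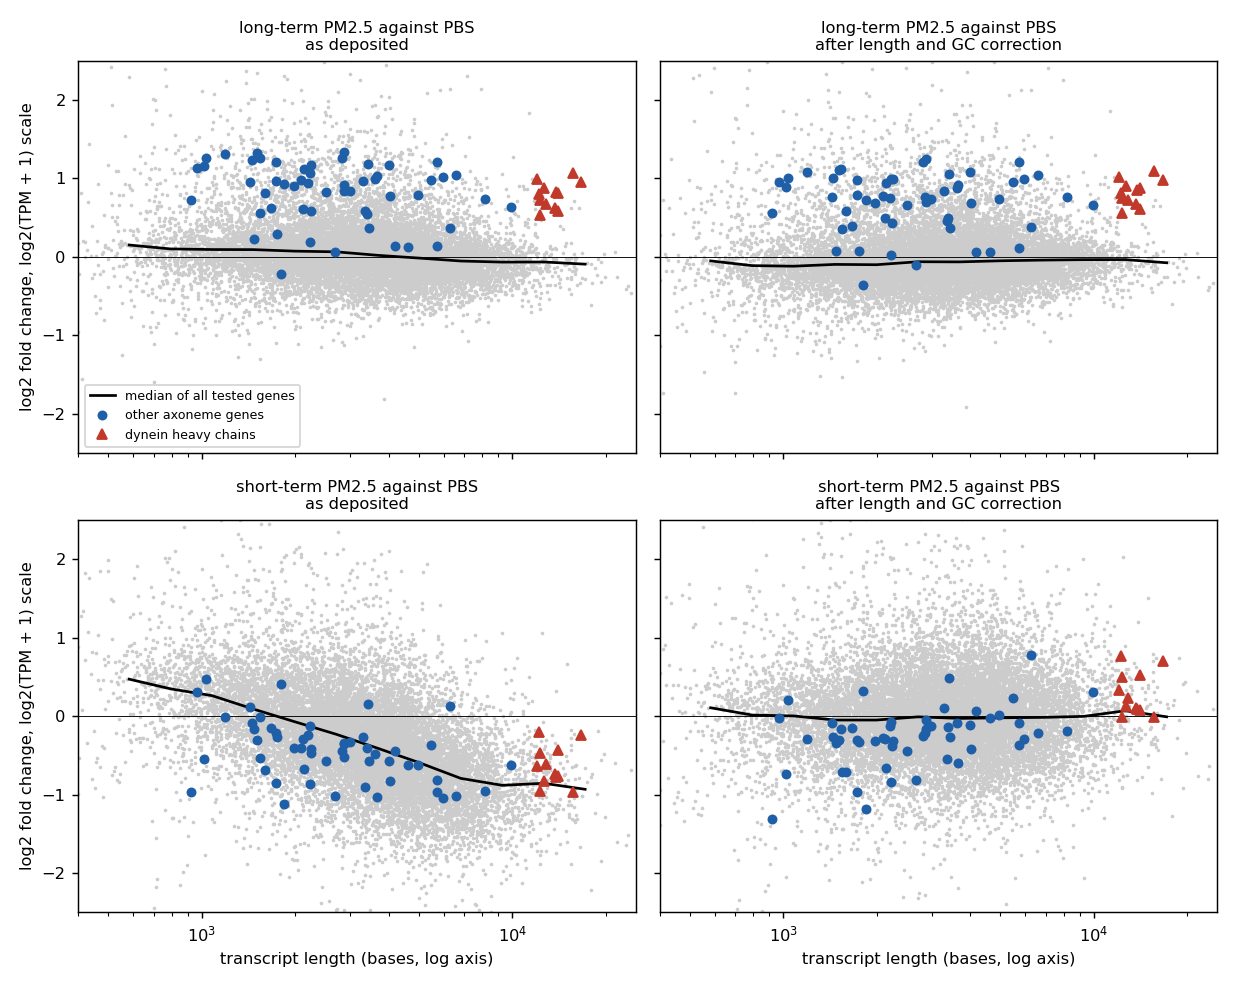
Log2 fold change against transcript length on a log axis for axonemal genes, with heavy chains as triangles and the median of all tested genes as a line, for both comparisons with PBS, as deposited and after the length and GC correction. In the short-term panels as deposited the heavy chains follow the downward line, with a median of -0.68, and after correction they lie around 0.18, while in the long-term panels their medians are 0.81 and 0.83.

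Some genes outside the heavy chains fell after a single dose both as deposited and after the correction. Cfap77 (1841 bases) measured 5.98, 6.41 and 7.68 TPM in PBS and 1.66, 3.75 and 2.48 TPM in the short-term group, a fall of 1.12 as deposited and of 1.19 after correction. Cfap157 (1730 bases) fell by 0.86 and 0.97 in the same order. Rsph3a fell by 0.87 and 0.84, from 41.2, 33.9 and 45.8 TPM to 15.6, 23.5 and 27.0 TPM. Dnali1 fell by 0.67 both ways. Rsph4a (3650 bases) fell by 1.03 as deposited and by 0.60 after correction. The short-term libraries of these genes all lay below PBS. Over all 3 other scalings, the length and GC correction among them, 7 genes fell every time: Cfap20dc, Cfap58, Cfap65, Cfap73, Cfap77, Rsph3a and Rsph4a. How many of all tested genes did so was not counted.

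Several abundant genes of short transcripts had small differences from PBS after a single dose. Rsph1 had a short-term log2 difference of -0.01 (limma adjusted p = 0.938), Tekt4 of -0.01 and Tekt1 of -0.08, while Cfap298 had 0.12. After the length and GC correction these were -0.29, -0.16, -0.27 and -0.09 in the same order, and none passed either way. Cfap126 measured 95.2, 61.0 and 78.8 TPM in the short-term group, all above PBS, and rose by 0.48 (SE 0.17, limma adjusted p = 0.0402). Its call was lost after correction, at 0.21. Tekt5 rose by 0.41 (SE 0.15, limma adjusted p = 0.0442) and by 0.32 after correction. Among the fits that left out 1 library, the Tekt5 call held only without short-term replicate 2. The Cfap126 call held only without short-term replicate 2, long-term replicate 1 or long-term replicate 3. Both calls were lost when the 2 compared groups were fitted alone.

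The long-term and short-term groups were compared directly to set repeated against single exposure, with duration differing too. Of 66 axonemal genes, 64 were higher in the long-term group (97%) and 1, Tekt5, was lower, where 43.4% of all tested genes were higher and 7.08% lower. The libraries of both groups did not overlap in the same number of genes, 64 higher (50.2% of all tested genes) and 1 lower (9.94%). The 4 genes that passed the filter only through the long-term libraries are among the 64, and the filter fixed their separation. Without them 60 of 62 passed as higher and 1 as lower. Over the 66 genes the median log2 difference was 1.33, against 0.41 over all tested genes, and Cfap410 alone did not pass (0.24, limma adjusted p = 0.202). After the length and GC correction 55 were higher and 1 lower (19.6% and 22.6% of all genes), with a median of 0.86. As deposited Cfap65 had the largest difference at 2.18 (1.59 after correction), followed by Rsph4a at 2.07 (1.52), Cfap44 at 2.06 (1.25) and Cfap43 at 2.06 (1.28). The order changed with the correction, after which Cfap77 (1.91), Cfap73 (1.87), Cfap157 (1.76), Cfap299 (1.64) and Dnali1 (1.61) stood above Cfap65. Dnah5 differed by 2.04 (1.11), with 6.19 ± 0.42 TPM in the long-term and 0.77 ± 0.37 TPM in the short-term group (SD, n = 3). Heavy chains as a whole had a median of 1.47, and of 0.63 after correction, when 8 of 12 passed. The difference of Cfap20, 0.59 as deposited, disappeared after correction (-0.0017).

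Genes of the same machine that the name rule does not catch were counted from a fixed list. Of 51 such genes in the table, 49 were tested. In the long-term group, where 9.51% of all tested genes rose and 1.72% fell, 39 of the 49 rose and 0 fell, with a median of 0.95. They included Lrrc23, a spoke head protein (2.01), Ccdc39 and Ccdc40, which set the spacing of the spokes (1.31 and 1.07), Dynlrb2, a dynein light chain (1.09), and Hydin of the central apparatus (0.71). In the short-term group 26 fell and 2 rose as deposited, where 40.3% of all tested genes fell and 11.7% rose. After correction 18 fell and 2 rose, where 26.4% fell and 24.0% rose.

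Regulators that switch on the multiciliated programme were counted from a list of 15 tested genes. In the long-term group 9 of them rose, where 9.51% of all tested genes rose. Mcidas, Foxn4, Cdc20b and Gmnc, which are among the 9, passed the filter only through the long-term libraries, and without them 5 of 11 rose. Mcidas, which starts the programme, measured 0.51, 0.62 and 0.32 TPM in PBS, 0.45, 0.51 and 0.61 TPM in the short-term group and 12.3, 10.5 and 12.2 TPM in the long-term group, a log2 difference of 3.10. Deup1, needed to multiply centrioles, rose by 2.85 and Ccno by 2.49. Foxj1 rose by 1.47, from 90.3 ± 4.89 to 252 ± 26.8 TPM (SD, n = 3). Rfx2 and Rfx3, factors that bind the X-box, did not pass, with 0.28 and 0.44, nor did E2f4 (-0.06). In Mcidas, Deup1, Ccno and Foxj1 each long-term library stood above all others, and none of these genes passed in the short-term group. Other regulators did: over the list of 15, 6 fell and 0 rose there as deposited, where 40.3% of all tested genes fell and 11.7% rose. After correction 4 fell and 1 rose, where 26.4% fell and 24.0% rose. Myb fell both ways, by 1.52 and 1.08.

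Epithelial cell markers in the long-term group differed by cell type, where 9.51% of all tested genes rose and 1.72% fell. Ciliated cell markers outside the name rule rose in 18 of 19 cases, with a median of 0.96 and a summed level of 1814 to 2181 TPM in PBS and 2323 to 2948 TPM in the long-term group. Tppp3, the most abundant of them, was the exception, with -0.31, and did not pass. Goblet cell markers rose in 9 of 9 tested (8 of 8 without Muc5ac, which passed the filter only through the long-term libraries), with a median of 2.65 and a sum of 41.5 to 73.7 TPM in PBS and 494 to 577 TPM in the long-term group, and Muc5ac, an airway mucin, went from 0.15, 0.24 and 0.27 TPM to 6.81, 8.08 and 7.79 TPM. Club cell markers rose in 2 of 12, with a median of 0.22, and Scgb1a1 had 0.03. Of 12 pan-epithelial genes 4 rose (median 0.53), of 10 alveolar type 2 markers 1 rose (median 0.30), of 11 alveolar type 1 markers 1, Hopx, fell (median -0.35), and of 2 tested basal cell markers 1 rose. After the length and GC correction 8 of the 11 alveolar type 1 markers fell (median -0.41), where 11.6% of all genes fell and 12.4% rose. With that correction 3 club cell, 6 pan-epithelial and 2 alveolar type 2 markers rose, while 1 club cell marker fell. The part of a changed cell makeup in the axonemal result was not tested.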

How the data were processed

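Messenger RNA was selected with oligo(dT) from whole lung, per the labels' protocols, with a DSN step before DNBSEQ sequencing. The submitters' processing notes name HISAT2, Bowtie2, RSEM, DESeq2 and the mouse build GRCm38.p6, with no role or version. The deposited TPM values were made by the authors, 1 column per library, with column totals within 1.09 TPM of each other, so read depth is unknown and no interval that needs counts is given.

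Values were tested as log2(TPM + 1) with limma 3.58.1 (R 4.3.3, empirical Bayes with an intensity trend, 6 residual degrees of freedom, two-sided), all 3 groups in one fit. The filter of 1 TPM in 3 libraries kept 13991 genes and removed 4884, and p-values were adjusted over those kept by Benjamini-Hochberg (threshold 0.05). Fold changes of low genes are understated by the pseudocount. The length and GC correction subtracted from each library, centred on the gene means, natural splines (5 degrees of freedom) in log2 length and GC content of GENCODE M21 transcripts, for 13792 tested genes. Summaries were made with Python 3.11.15. The main fit and the fit after the length and GC correction were tried on simulated data, for both comparisons with PBS. The other steps were not.

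Genes are named by a rule: per role the 4 most abundant, per comparison the 5 largest and 5 smallest changes past the threshold, up to 3 abundant genes per outside list, and a few fixed ones. Any other gene named was chosen after its values were seen. Members and lists were chosen with earlier results of these data known. Same-numbered libraries of different groups did not deviate together (correlations -0.286 to 0.262). Alternatives were another pseudocount, other filters, 3 scalings, fits of 2 groups, a replicate block and leaving out each library.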

Additional observations from a re-analysis of the deposited data

How the results depend on the processing

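The number of axonemal genes higher in the long-term group against PBS was 43 to 58 of those tested under the alternatives other than leaving out a library, and 30 of 42 when a mean of 5 TPM was required, which tests fewer genes. Leaving out each library in turn gave 32 to 58. The number lower was 0, but 1 with the length and GC correction, with all libraries and without short-term replicate 1. Over all tested genes, alternatives that kept every library gave 993 to 2500 higher, apart from 748 of 10597 with the 5 TPM filter. Fits without 1 library gave 732 to 2148. Against short-term PM2.5, 64 axonemal genes higher became 40 with the 5 TPM filter and 55 to 67 otherwise, apart from leave-one-out fits (59 to 65). Over all tested genes the counts higher were 4328 with the 5 TPM filter, 2505 to 5961 otherwise and 3778 to 8052 in leave-one-out fits. The short-term comparison with PBS moved most. The axonemal counts were 2 higher and 37 lower as deposited. They were 5 and 17 after the length and GC correction, and 4 and 18 when short-term replicate 1 was also left out (an alternative chosen after seeing the data). They were 4 and 24 with median-ratio scaling, 4 and 19 with quantile normalization and 1 and 35 with no filter. The 5 TPM filter gave 2 and 22, and fitting the 2 groups alone gave 0 and 28. Of all 13991 tested genes, 3421 rose and 3885 fell with median-ratio scaling, 3477 and 3745 with quantile normalization, and 1283 and 4302 in the 2-group fit. Of 18875 genes with no filter 1708 rose and 5432 fell, and of 10597 with the 5 TPM filter 1384 and 4291. The corrected fit without short-term replicate 1 gave 3117 and 3415 of 13762. Leaving out each library gave 0 to 3 axonemal genes higher and 25 to 42 lower. Over all tested genes those fits gave 1215 to 1942 higher and 3889 to 7241 lower. The causes were not tested. Scaling moved the median of all genes from -0.34 to between -0.05 and -0.02 in the short-term comparison and from 0.41 to between -0.02 and 0.08 between the exposures. A replicate block, which is not supported by pairing of the samples, gave 43 axonemal genes higher against PBS in the long-term group, 0 higher and 30 lower in the short-term group and 64 higher between exposures, and with the length and GC correction 51 higher, 5 higher and 17 lower, and 55 higher. Over all tested genes the block gave 1421 higher and 4955 lower in the short-term group, and 3095 and 3370 with the correction.

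Short-term log2 differences changed sign with the length and GC correction in 17 of the 66 tested genes, 10 of them heavy chains. Beside Dnah1 (0.23), Dnah7c (0.77), Cfap54 (0.31), Cfap74 (0.23), Cfap97d2 (0.10), Cfap298 (-0.09) and Rsph9 (-0.02), these were the following, with the same values under the replicate block, and given again without short-term replicate 1: Dnah9 0.09 and 0.0015, Dnah11 0.52 and 0.58, Dnah8 0.70 and 0.59, Dnah6 0.13 and 0.10, Dnah10 0.07 and 0.06, Dnah12 0.34 and 0.18, Dnah2 0.10 and 0.07, Dnah7b 0.50 and 0.27, Cfap20 0.06 and 0.03, and Cfap69 0.02 with all libraries. In Dnah7b and Dnah7c the low levels leave little room for a fall on the log2(TPM + 1) scale, so their changed signs cannot show a rise. Quantile normalization turned Dnaaf2 to 0.06, Cfap53 to 0.04, Sftpb to -0.37, Sftpa1 to -0.03 and Ager to -0.30. Between exposures Cfap20 became -0.0017 with the correction and under the block with it, and Emp2 -0.36 with the correction without short-term replicate 1. Depth is unknown, and so is the number of reads behind genes near 1 TPM. For the long heavy chains a low TPM need not mean few reads, because TPM is scaled by transcript length.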

Other observations

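Genes for building and loading cilia, shared with the primary cilia of many cell types, were counted beside the axonemal genes. The table holds 28 intraflagellar transport genes. Of these, 27 were tested and 6 rose in the long-term group against PBS (limma adjusted p under 0.05): Ift74 (0.80), Wdr19 (0.73), Ift140 (0.69), Ift22 (0.64), Hspb11 (0.53) and Ift46 (0.49). Of all tested genes 9.51% rose. The median of the transport genes was 0.45, against 0.03 over all tested genes. After the length and GC correction 16 of the 27 rose, where 12.4% of all genes rose. The abundant Ift43 and Ift20 had log2 fold changes of -0.03 and 0.10. In the short-term group 15 of the 27 fell and 1 rose as deposited, and 6 fell and 2 rose after correction, where 40.3% and 26.4% of all genes fell and 11.7% and 24.0% rose. The difference between this list and the axonemal genes was not tested.

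Of 7 tubulins and tubulin-related genes, 2 rose in the long-term group, where 9.51% of all tested genes rose. Tubb4b, the beta tubulin of motile cilia that other cells also make, measured 370, 354 and 349 TPM in PBS, 437, 507 and 439 TPM in the short-term group and 531, 503 and 587 TPM in the long-term group. It rose in both exposed groups, by 0.59 (limma adjusted p = 0.00483) and 0.36 (limma adjusted p = 0.0162), and the short-term call was lost after the length and GC correction (0.21). Tuba1a had 0.07 and -0.13 in the long-term group as deposited and after correction, and passed in neither. Of the sperm and testis list, 12 genes are in the table and 2 were tested: Spata18 rose in the long-term group (1.16) and fell in the short-term group by 1.84, and by 1.88 after correction, and Odf2 had 0.27 and did not pass in the long-term group.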
